A study of Saccharomyces cerevisiae with 22 samples.

Results

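The right end of chromosome IV of Saccharomyces cerevisiae was followed at the transcript level as a block of neighbouring genes. The members were the array's genes named YDR262W and onward to the end of the right arm, apart from the hexose transporter genes YDR342C, YDR343C and YDR345C. Membership is set by the systematic name. There were 285 such genes of 6225 on the array, and 266 of 5911 passed the filter on dim probes and were tested. Of the 285 genes, 258 were listed in the R64 annotation and all 258 lay on chromosome IV.

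All strains were self-diploid derivatives of BY4742 (MATα his3Δ1 leu2Δ0 lys2Δ0 ura3Δ0) grown without leucine. They carried a LEU2 single-copy plasmid, either pUKC715 with a Candida albicans tRNA Ser CAG gene, which puts serine at leucine CUG codons, or the empty vector pRS315. The groups were D11 and H9 with the empty vector (3 arrays each), B3 with the empty vector (2 arrays) and the ancestor with the empty vector (2 arrays), written D11 EV, H9 EV, B3 EV and ancestor EV. The same strains with the tRNA plasmid, written D11 tRNA, H9 tRNA, B3 tRNA and ancestor tRNA, had 3 arrays each. D11, H9 and B3 are lineages evolved with the tRNA plasmid from a single founding clone, each represented by a single colony, and for the EV groups the tRNA plasmid was exchanged for the vector. Replicates of a group were described as separate experiments. Each lineage is 1 clone, so that the spread between arrays says nothing about other clones of the lineage.

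Budding yeast normally transcribes each gene copy on its own, so that an extra copy of a chromosome segment usually raises the transcripts of its genes in proportion. Genes whose transcripts keep this proportion are called dosage followers here, and genes whose transcripts stay below it are called escapers. Transcript control by nutrients, by the product itself or by neighbouring telomeric chromatin can move a gene away from its copy number. Resequencing in the study gave most evolved lines an extra copy of this chromosome end. The labels of the arrays do not tie their lineages to those lines, and copy number was not measured on these arrays. In a diploid an extra copy makes 3 copies in place of 2, which is 0.585 on the log2 scale, and transcripts were set against this value.

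Levels are given as the log2 of the processed signal with the median of the array subtracted. Median signals per array ranged from 356 to 2278 before scaling, and 85.9% to 95% of spots were well above background. LYS2, deleted in the background, was well above background on 0 arrays and HIS3 and URA3 on 5 and 3 of 22 arrays, while LEU2, the plasmid marker, and the alpha-specific gene MFALPHA1 were detected on all 22. The third D11 EV array stood apart from the rest. It was the dimmest array, and its correlation with the other D11 EV arrays across genes was 0.924 and 0.926, while all other replicate pairs reached 0.965 or more. On it, 26 members lay more than 1 log2 unit below the mean of the other D11 EV arrays, and on the second D11 tRNA array 15 members lay as far below its replicates, of which 13 were shared. Over all tested genes the counts were 553 and 372, with 278 shared. The main counts, the list values that moved by over 1.5 times and the genes most affected are also given without these 2 arrays. The p-values of H9 are affected too, since all groups share 1 estimate of the spread. The third H9 EV array also deviated, with 8.65% of members and 10.1% of all genes over 1 log2 unit from the mean of its replicates. On the second D11 tRNA array these shares were 5.64% and 6.94%. Block medians and counts of H9 EV were also taken without that H9 array, but the list values of H9 EV include it.

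The block as a whole was higher in D11 and H9 than in the ancestor, and not in B3. The mean over the 266 members was 0.49, 0.49 and 0.50 log2 units above the mean of ancestor EV on the D11 EV arrays (mean 0.49 ± 0.0047, SD, n = 3). On the H9 EV arrays it was 0.46, 0.42 and 0.56 above ancestor EV (0.48 ± 0.075, SD, n = 3). These means correspond to 1.40-fold in D11 EV and 1.39-fold in H9 EV. With the tRNA plasmid on both sides the difference was 0.55, 0.55 and 0.58 in D11 tRNA (0.56 ± 0.012, SD, n = 3) and 0.58, 0.57 and 0.55 in H9 tRNA (0.57 ± 0.016, SD, n = 3), close to 1.48-fold in both. The B3 arrays lay at -0.06 and -0.04 with the vector and at -0.03, 0.00 and -0.03 with the tRNA. Every D11 and H9 array lay above every B3 and ancestor array. The near-equal means of D11 EV came from unlike arrays. Differences of single members from ancestor EV had medians of 0.47, 0.48 and 0.77 on the D11 EV arrays. Their SD between members was 0.52, 0.50 and 1.17. On the D11 tRNA arrays the medians against ancestor tRNA were 0.56, 0.71 and 0.57.

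**Figure D1:**
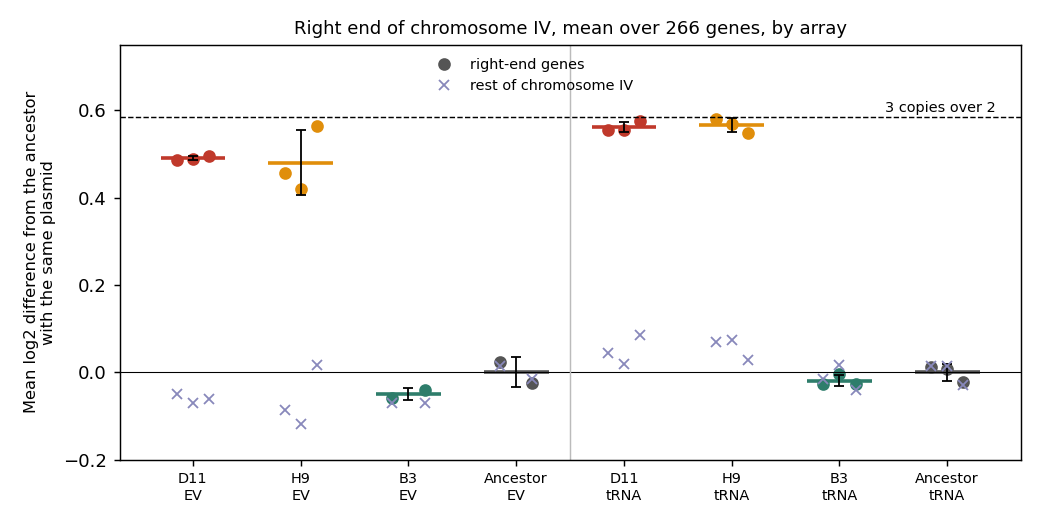
Mean log2 difference of the 266 right-end genes from the mean of the ancestor with the same plasmid (vertical axis) on each array (circles) in 8 groups, with group means (coloured bars) and SD (black error bars). Crosses give the same mean over the 493 other tested genes of chromosome IV, and the dashed line marks 0.585, 3 copies over 2. All D11 and H9 circles lie between 0.42 and 0.58, and the B3 circles lie within 0.06 of 0.

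Arrays of each replicate number shared a slide, and no ancestor EV array was on the third slide. Against the ancestor array of the same slide the block stood at 0.46 and 0.51 in D11 EV and at 0.43 and 0.44 in H9 EV. With the tRNA plasmid the 3 within-slide values were 0.54, 0.55 and 0.60 in D11 and 0.57, 0.56 and 0.57 in H9. The other 493 tested genes of chromosome IV averaged -0.06 in D11 EV, -0.06 in H9 EV, 0.05 in D11 tRNA and 0.06 in H9 tRNA relative to the ancestor.

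The step at the start of the block was sharp in gene order. The last 20 tested genes before it, YDR240C to YDR261C, had median differences of -0.26 in D11 EV, -0.08 in H9 EV, 0.01 in D11 tRNA and 0.03 in H9 tRNA, each against the ancestor with the same plasmid. The first 20 members, YDR262W to YDR284C, had medians of 0.51, 0.49, 0.56 and 0.72 in the same order of groups. Single genes next to the start were less clear. Just outside it YAP6 (YDR259C), a stress transcription factor gene, SWM1 (YDR260C), a subunit gene of the anaphase-promoting complex, and EXG2 (YDR261C), a glucanase gene, differed in D11 EV by 0.69, -0.37 and -0.35, and in H9 EV by -0.26, -0.21 and 0.08. Just inside it YDR262W, of unknown function, DIN7 (YDR263C), a nuclease gene, and AKR1 (YDR264C), a palmitoyltransferase gene, differed in D11 EV by -0.19, 0.00 and 0.49, and in H9 EV by 0.66, 0.67 and 0.41. YDR262W and DIN7 are among the 13 members that were low on both D11 arrays that stood apart, and without those arrays they differed in D11 EV by 0.60 and 0.69.

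Along the block every stretch of 20 genes had a median well above that of the last 20 tested genes before the start in D11 and H9. This did not hold against all earlier stretches in D11 EV. There YDR073W to YDR091C, before the start, had a median of 0.26, beside 0.27 for YDR495C to YDR514C in the block. The medians of the 13 stretches ran from 0.27 to 0.75 in D11 EV, 0.42 to 0.57 in H9 EV, 0.49 to 0.75 in D11 tRNA and 0.48 to 0.72 in H9 tRNA. The last 6 tested genes of the arm, YDR539W to YDR545W, had medians of 0.12, 0.26, 0.18 and -0.15 in these groups, in that order. The first of these was 0.27 without both D11 arrays that stood apart. These genes are described below with the other telomere-proximal genes. In B3 the medians of the same stretches of 20 lay between -0.29 and 0.04 with the vector and between -0.05 and 0.02 with the tRNA.

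**Figure D2:**
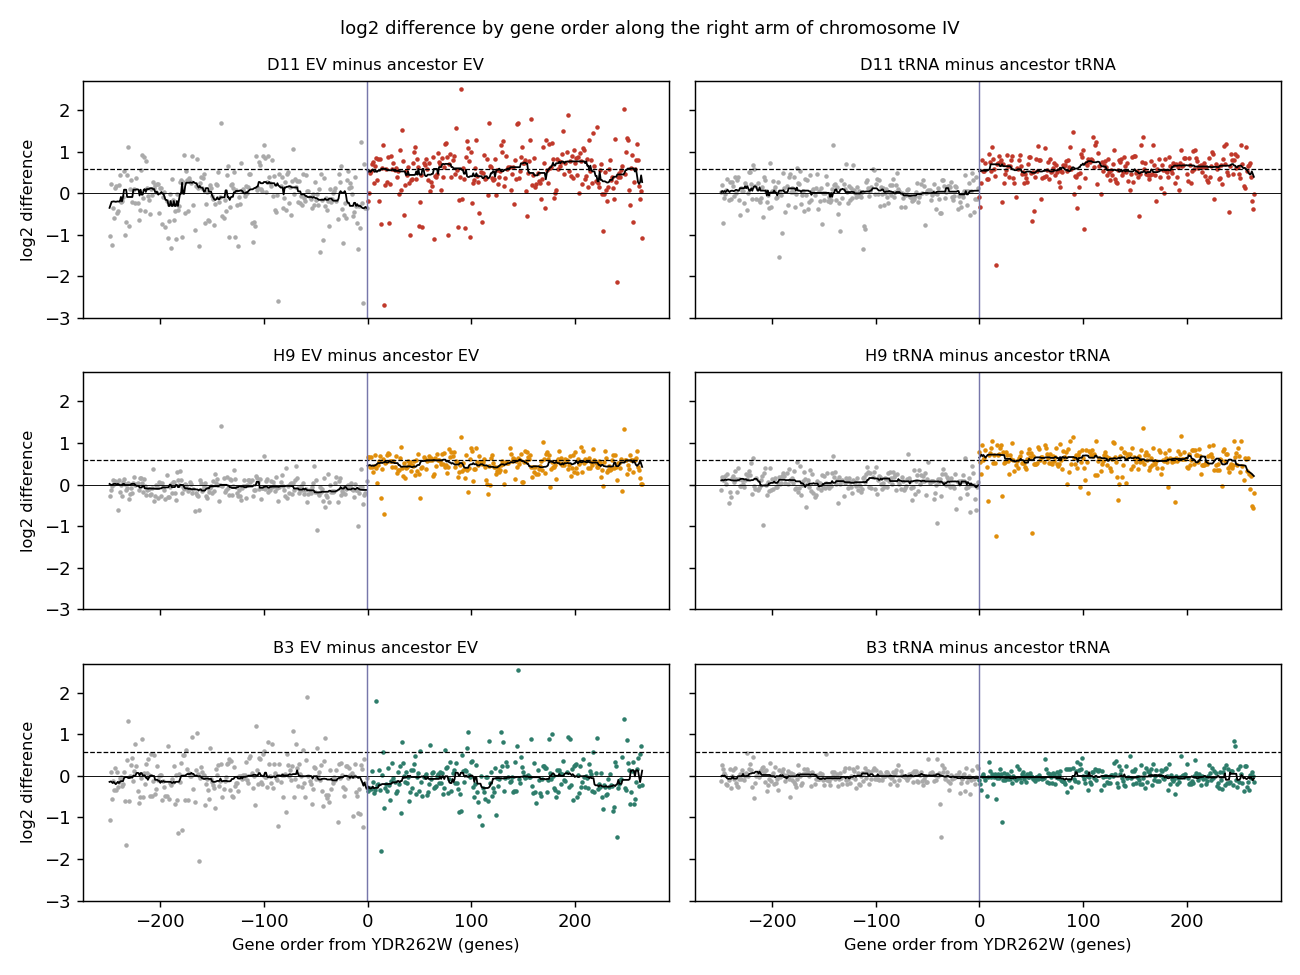
Difference in log2 level from the ancestor with the same plasmid (vertical axis) for each tested gene of the right arm in gene order counted from YDR262W (horizontal axis), with D11, H9 and B3 in rows and the empty vector and tRNA in columns. Coloured points are the members, grey points are other genes, black lines are running medians over 21 genes and the dashed line marks 0.585. The running median steps up at the vertical line in D11 and H9, where the medians of 20 genes on its left and right were -0.26 and 0.51 in D11 EV, and it stays near 0 in B3.

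Gene by gene, most members rose in D11 EV, D11 tRNA and H9 tRNA, and fewer passed the test in H9 EV. Calls were made with limma at a Benjamini-Hochberg adjusted p under 0.05 over all tested genes, with no fold limit. In D11 EV 143 of 266 members were higher and 2 lower than in ancestor EV, where 16.5% of all genes were called higher and 11.7% lower. In H9 EV 75 members were higher and 0 lower, against 1.71% and 1.52% of all genes. At an unadjusted p under 0.05, 167 members differed in H9 EV, beside 692 of all 5911 tested genes. With the tRNA plasmid 156 members were higher and 1 lower in D11, against 5.8% and 1.88% of all genes, and 146 were higher and 3 lower in H9, against 4.65% and 6.73%. The median difference over the members was 0.54 in D11 EV, 0.51 in H9 EV, 0.60 in D11 tRNA and 0.61 in H9 tRNA, beside 0.02, -0.05, 0.07 and 0.05 over all tested genes. In B3 the 5 members called higher and 12 called lower with the vector stood beside 5.99% and 5.94% of all genes. With the tRNA 0 members were called by limma in B3, beside 2.66% of all genes higher and 1.44% lower. There 11 members had an unadjusted p under 0.05, beside 688 of 5911 tested genes.

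Both EV counts leaned on single arrays of the 2-array ancestor EV group. Counts without a single array are not set beside the share of all genes called in the same fits. They do not tell a loss in the block from a general loss of calls. The 75 calls in H9 EV became 13 without ancestor EV replicate 1, 8 without ancestor EV replicate 2 and 45 without H9 EV replicate 2, and 138 when both D11 arrays that stood apart were left out of the joint fit, while the median stayed between 0.47 and 0.54 when any single array was left out. The 145 calls in D11 EV became 96 and 83 without ancestor EV replicates 1 and 2, and 144 without both D11 arrays that stood apart. Of those 144, 141 were higher and 3 lower, beside 15.67% and 16.95% of all genes. The 138 calls in H9 EV in that setting were all higher, beside 3.485% of all genes. On all 6 D11 arrays 156 members lay above all 5 ancestor arrays of both plasmids, on all 6 H9 arrays 152 did, and in both lineages 112 did, beside 6.41%, 3.69% and 2.23% of all genes with a value on every array. In B3 3 members did, beside 5.86% of all genes. On every array, 1 member in D11, 0 in H9 and 11 in B3 lay below all ancestor arrays, beside 1.49%, 2.83% and 3.35%.

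B3, an evolved lineage without the higher block, gave a second reference. Against B3 EV 148 members were higher and 2 lower in D11 EV, beside 6.67% and 3.84% of all genes, and 146 were higher and 3 lower in H9 EV, beside 11.7% and 13.4%. Against B3 tRNA 174 were higher and 1 lower in D11 tRNA, beside 7.04% and 3.54%, and 164 were higher and 2 lower in H9 tRNA, beside 6.55% and 9.95%. The median differences were 0.64, 0.59, 0.64 and 0.62. Counts without a single B3 EV array are not set beside the share of all genes called in the same fits. The EV counts became 90 and 86 in D11 and 98 and 93 in H9 without B3 EV replicates 1 and 2.

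SWA2 and TRR1 were called higher in all 4 comparisons with the ancestor. SWA2, encoding a cofactor that uncoats clathrin vesicles, stood at 0.55, 0.52 and 0.70 on the D11 EV arrays and 0.49, 0.64 and 0.42 on the H9 EV arrays, against -0.14 and -0.18 in B3 EV and -0.16 and -0.13 in ancestor EV. With the tRNA it stood at 0.47, 0.55 and 0.39 in D11 and 0.60, 0.57 and 0.55 in H9, against -0.04, 0.04 and -0.13 in B3 and 0.06, 0.09 and 0.10 in the ancestor. No D11 or H9 array overlapped the ancestor or B3. The differences were 0.73 (SE 0.09, adjusted p = 4.65e-05, limma) in D11 EV, 0.66 (adjusted p = 0.00042) in H9 EV, 0.39 (adjusted p = 0.00547) in D11 tRNA and 0.49 (adjusted p = 0.000574) in H9 tRNA. TRR1, encoding the cytosolic thioredoxin reductase, stood at 4.2, 4.39 and 4.47 in D11 EV and 4.22, 4.28 and 4.43 in H9 EV, against 3.89 and 3.88 in ancestor EV. Its tRNA arrays read 4.18, 4.23 and 4.14 in D11 and 4.18, 4.14 and 4.24 in H9, against 3.44, 3.41 and 3.34 in the ancestor. TRR1 rose by 0.47, 0.43, 0.79 and 0.79.

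The members were then classed by the 95% interval of their limma difference. A follower had an interval above 0 that held 0.585, an escaper an interval wholly below 0.585, an overshooting gene one wholly above 0.585, and an open gene one that held both 0 and 0.585. In D11 EV there were 134 followers, 50 escapers, 35 overshooting and 47 open genes. In H9 EV there were 161, 20, 3 and 82. An escaper interval may still lie above 0, and the classes depend on the width of each gene's interval. The intervals are not adjusted for the number of genes, so a follower need not have passed the test. In H9 EV 75 members had passed as higher. Some intervals would also miss 0.585 by error alone. Without both D11 arrays that stood apart the D11 EV counts were 130 followers, 75 escapers, 26 overshooting and 35 open genes. The EV escaper counts also fell without an ancestor EV array, to 24 and 32 in D11 and to 10 and 12 in H9 without replicates 1 and 2, and the H9 count was 43 without H9 EV replicate 3.

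Both lineages placed 103 members among the followers and 9 among the escapers in the EV arrays. The 2 EV comparisons share the ancestor EV arrays, so this joint count is a description. The tRNA arrays share none with the EV arrays and gave a second reading of the same genes. The classes in the 2 readings are not independent. Their interval widths rest on 1 estimate of each gene's spread over all arrays. Of the 103 joint followers 78 were followers in both D11 tRNA and H9 tRNA, with a median difference of 0.66, and 2 were escapers in both. Of the 9 joint escapers 4 were escapers in both tRNA comparisons and 3 were followers in both, with a median of 0.43. Over all 266 members 152 were followers and 10 escapers in both tRNA comparisons, with a median of 0.59. Without both D11 arrays that stood apart there were 17 joint EV escapers, 8 of them among the 9.

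**Figure D3:**
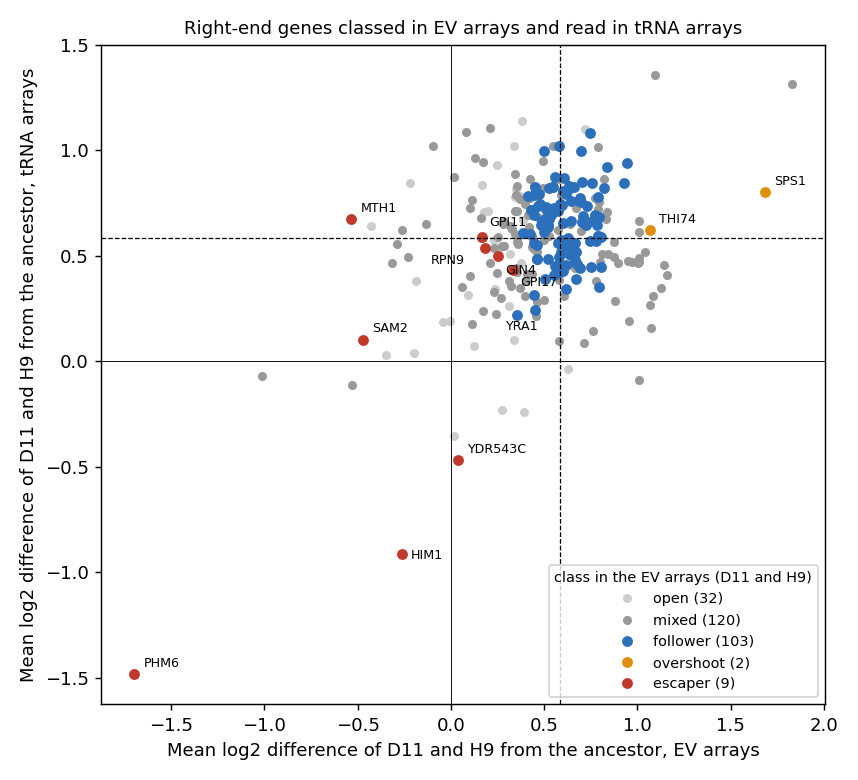
Mean log2 difference of D11 and H9 from the ancestor for each of the 266 right-end genes with the empty vector (horizontal axis) and with the tRNA (vertical axis), coloured by the class shared by D11 and H9 in the EV arrays. Mixed genes had different classes in the 2 lineages, and dashed lines mark 0.585. Of the 9 escapers, PHM6, HIM1, YDR543C and SAM2 lie low on the tRNA axis too, whereas MTH1 and GPI11 lie near 0.585 there.

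PHM6, SAM2, HIM1 and YDR543C were escapers in all 4 comparisons. PHM6 (YDR281C), a phosphate-regulated gene of unknown function, had the lowest measured difference of all members in each of the 4 comparisons. Its levels were -7.0, -6.27 and -5.95 in D11 EV and -5.06, -4.45 and -3.71 in H9 EV, against -4.43 and -4.55 in B3 EV and -3.68 and -3.74 in ancestor EV. No D11 EV array was well above background for it. Its measured difference of -2.695 in D11 EV passed the test (adjusted p = 0.000102, limma). As a bound, it was at least 3.08-fold lower in D11 EV than in ancestor EV. For the bound, which was not itself tested, each dim array entered at its detection floor or at the gene's measured signal, whichever was brighter. With the tRNA PHM6 stood at -5.52, -4.67 and -4.92 in D11 and -4.57, -4.65 and -4.46 in H9. This was against -3.47, -3.8 and -4.35 in B3 and -3.32, -3.65 and -2.98 in the ancestor. It was well above background on 2 of 3 D11 tRNA arrays. All D11 and H9 tRNA arrays lay below all B3 and ancestor tRNA arrays, with differences of -1.72 (adjusted p = 0.00277) in D11 and -1.24 (adjusted p = 0.0175) in H9. In H9 EV the difference of -0.70 did not pass the test (adjusted p = 0.495).

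SAM2 (YDR502C), encoding an S-adenosylmethionine synthetase, was lower in D11 than in H9 with either plasmid. It stood at 2.14, 2.26 and 2.44 in D11 EV and 2.95, 3.27 and 3.26 in H9 EV, against 2.43 and 2.36 in B3 EV and 3.23 and 3.16 in ancestor EV. H9 EV overlapped the ancestor, while D11 EV and B3 EV lay below it. With the tRNA the levels were 2.11, 2.09 and 2.04 in D11 and 2.62, 2.58 and 2.5 in H9, against 2.32, 2.42 and 2.29 in B3 and 2.09, 2.42 and 2.14 in the ancestor. SAM2 fell in D11 EV by 0.91 (adjusted p = 8.21e-05, limma) and rose in H9 tRNA by 0.35 (adjusted p = 0.0456), with an upper interval end of 0.57. The probe of SAM2 may also take up transcript of its close paralog SAM1, since probe sequences were not examined.

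HIM1 (YDR317W), a gene linked to DNA repair, stood at -3.83, -4.39 and -5.09 in D11 EV and -4.63, -4.74 and -4.32 in H9 EV, against -4.36 and -4.12 in ancestor EV. With the tRNA it stood at -3.59, -4.66 and -3.57 in D11 and -4.24, -4.48 and -4.6 in H9, against -2.95, -3.63 and -3.33 in B3 and -3.45, -3.29 and -3.09 in the ancestor. All H9 and D11 tRNA arrays were below all ancestor tRNA arrays, the second D11 tRNA array being the lowest in D11. HIM1 fell in H9 tRNA by 1.16 (adjusted p = 0.0148), and the difference in D11 tRNA was -0.66 (adjusted p = 0.21) with all arrays and -0.30 without that array. YDR543C, a reading frame close to the telomere, stood at -2.77, -3.09 and -3.03 in D11 EV and -3.04, -2.77 and -3.19 in H9 EV, against -2.98 and -3.06 in ancestor EV, with the groups overlapping. With the tRNA it was lower on every D11 array (-2.95, -2.95 and -2.81) and every H9 array (-3.28, -3.01 and -3.0) than on any ancestor array (-2.68, -2.46 and -2.46). It fell in H9 tRNA by 0.57 (adjusted p = 0.00428), while -0.37 in D11 tRNA did not pass (adjusted p = 0.0725).

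YRA1 (YDR381W), which encodes an mRNA export adaptor, was an escaper in 3 of 4 comparisons and in all 4 without both D11 arrays that stood apart. Its levels in D11 EV were 3.31, 3.45 and 3.93 and in H9 EV 3.23, 3.18 and 3.54, against 3.13 and 3.28 in ancestor EV. In D11 tRNA they were 3.13, 3.55 and 3.24 and in H9 tRNA 3.27, 3.18 and 3.44, against 3.09, 3.08 and 3.05 in ancestor tRNA. The arrays of D11 and H9 with the tRNA lay above the ancestor by a narrow margin, with differences of 0.23 and 0.22, and the third D11 EV array and second D11 tRNA array were the highest of their groups. Without those 2 arrays YRA1 differed by 0.18 in D11 EV and 0.11 in D11 tRNA. The 7 members that were escapers in all 4 comparisons without those arrays were PHM6, YRA1, YDR433W, GPI17, SAM2, YDR543C and YRF1-1, a set seen only after the arrays were left out.

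**Figure D4:**
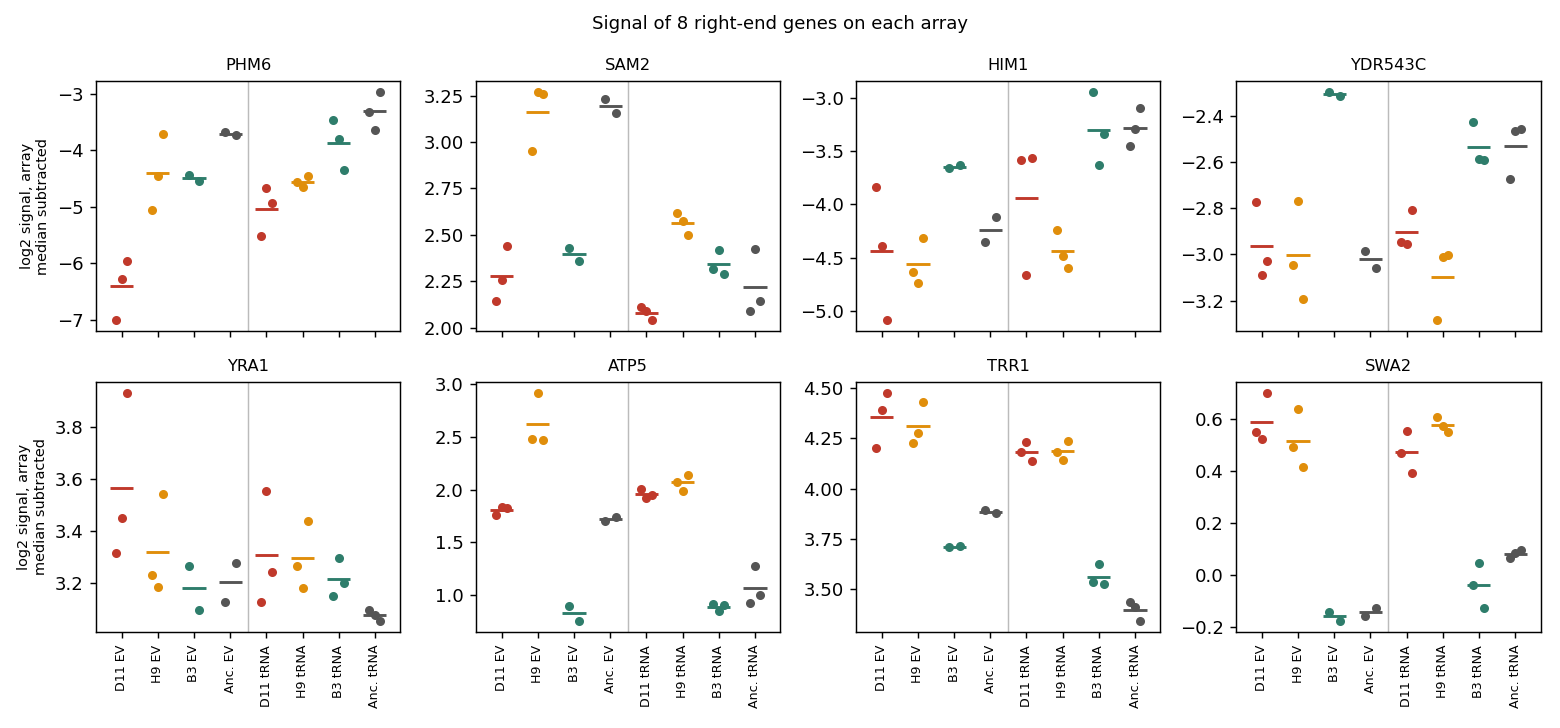
Level of 8 right-end genes (vertical axes, log2 signal with the array median subtracted, each with its own range) on every array (circles) in the 8 groups, with group means as bars and Anc. for the ancestor. PHM6, SAM2, HIM1, YDR543C and YRA1 are escapers in 3 or 4 comparisons. ATP5 lies higher in H9 EV than in D11 EV, and TRR1 and SWA2 lie above the ancestor on every D11 and H9 array.

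The other joint EV escapers did not keep that class with the tRNA in both lineages. MTH1 (YDR277C), a repressor in glucose sensing, differed by -0.74 in D11 EV and -0.32 in H9 EV but by 0.83 in D11 tRNA and 0.52 in H9 tRNA, none of which passed the test. It passed as lower in D11 EV, at -1.1 (adjusted p = 0.00517, limma), and as higher in D11 tRNA, at 0.89 (adjusted p = 0.0249), when both D11 arrays that stood apart were left out. Its ancestor level itself differed between plasmids, at -2.73, -2.0 and -2.88 with the tRNA and -1.36 and -1.34 with the vector. RPN9 (YDR427W), a subunit of the proteasome lid, differed by 0.20 and 0.17 in D11 EV and H9 EV, and rose by 0.58 (adjusted p = 0.00903) in D11 tRNA and 0.50 (adjusted p = 0.0173) in H9 tRNA. GPI11 (YDR302W) and GPI17 (YDR434W), both needed for glycosylphosphatidylinositol anchors, differed in D11 EV by 0.19 and 0.29 and in H9 EV by 0.15 and 0.38. Both rose in the tRNA comparisons, GPI11 by 0.60 in D11 and 0.57 in H9, and GPI17 by 0.45 in D11 and 0.42 in H9. GIN4 (YDR507C), a kinase of the bud neck, rose in D11 tRNA by 0.38 (adjusted p = 0.0155) and in H9 tRNA by 0.62 (adjusted p = 0.000219), and was an escaper in D11 tRNA.

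The genes classed as overshooting in both EV lineages were 2, SPS1 and THI74. SPS1 (YDR523C), a sporulation kinase gene, stood at -3.65, -3.74 and -2.87 in D11 EV and -3.98, -3.69 and -4.7 in H9 EV, against -4.16 and -4.04 in B3 EV and -5.59 and -5.33 in ancestor EV. The B3 EV arrays, whose block was at the ancestor level, were within the same range as H9 EV. SPS1 rose by 2.04 in D11 EV and 1.33 in H9 EV, and the smaller differences with the tRNA were 0.95 in D11 (adjusted p = 0.0337) and 0.66 in H9 (adjusted p = 0.128). The D11 tRNA value was 0.77 (adjusted p = 0.055) without both D11 arrays that stood apart. THI74 (YDR438W), a mitochondrial transporter gene regulated by thiamine, stood at -1.03, -1.16 and -0.28 in D11 EV and -1.06, -0.94 and -0.72 in H9 EV, against -1.65 and -1.76 in B3 EV and -2.07 and -1.8 in ancestor EV. It rose by 1.11 and 1.03 there, and by 0.68 in D11 tRNA and 0.56 in H9 tRNA. For THI74 the third D11 EV array was the highest of the group, and without both D11 arrays that stood apart the gene stood at 0.83 in D11 EV and was a follower there. The joint overshooting genes were then SPS1 and FDC1. The joint followers closest to 0.585 in the EV arrays were URC2, ATP22, FIT1, CAD1, TIM11, SUM1, HEH2, APA2, KEI1 and RPB7, which ranged from 0.42 (FIT1) to 1.02 (TIM11) in the mean of the tRNA differences.

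Members were grouped by function, and each list is given with its count of calls and its median, beside the medians over all tested genes above. Without both D11 arrays that stood apart, 7.105% of all genes were called higher in D11 tRNA and 9.203% in H9 tRNA. The shares called lower were then 2.842% and 10.54%. All 6 ribosomal protein genes of the block were called higher in D11 EV, with a median difference of 0.77, and 0 of 6 in H9 EV, where the median was 0.12. With the tRNA 6 of 6 were called in D11 (median 0.86) and 3 of 6 in H9 (median 0.61). RPL27B, of the large subunit, stood at 5.5, 5.57 and 6.14 in D11 EV and 5.02, 4.9 and 5.04 in H9 EV, against 4.91 and 4.92 in B3 EV and 4.76 and 4.63 in ancestor EV, all arrays of D11 and H9 lying above the ancestor. RPS17B, of the small subunit, differed by 0.61 in D11 EV and -0.06 in H9 EV. The third D11 EV array was the highest for RPL27B, and without both D11 arrays that stood apart 4 of 6 were called in D11 EV with a median of 0.59, and 1 in H9 EV.

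Most of these ribosomal protein genes have near-identical second copies elsewhere in the genome, and probes may not tell such copies apart. RPP2A, read beside RPP2B, is a related gene and not such a copy. The partners off the block were read beside the block genes. Genes off the block may also differ in copy number, which was not measured here. RPL37A, for example, lies on chromosome XII, of which the study reports an extra copy in most evolved lines. The off-block lists below include the chromosome XII genes UTP21, ATP14 and RPN13. RPL27A differed by 0.80 in D11 EV, RPL37A by 0.84, RPS17A by 0.42, RPS18B by 0.37, RPL12A by 0.30 and RPP2A by -1.07. Of these, RPL27A, RPL37A and RPS17A passed the test. Of the D11 EV arrays, the third was the low one for RPP2A, and without both D11 arrays that stood apart it differed by 0.27 (adjusted p = 0.321), while RPL27A and RPS17A, at 0.50 and 0.27, no longer passed. In H9 EV the same partners ran from -0.37 (RPL37A) to 0.14 (RPL27A), and 0 passed.

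The 11 genes of ribosome assembly and rRNA processing showed the largest list median, 1.22 in D11 EV, with 9 called higher. In H9 EV the median was 0.42 with 1 called, in D11 tRNA 0.26 with 1 called and in H9 tRNA 0.64 with 2 called. In B3 EV, with the block at the ancestor level, the same genes had a median of 0.71 and 2 were called. RRP17 (YDR412W), an exonuclease gene of large-subunit assembly, rose by 1.67 in D11 EV (SE 0.27, adjusted p = 0.000386). UTP5 (YDR398W), a subunit gene of the small-subunit processome, stood at 2.19, 2.15 and 2.39 in D11 EV and 1.98, 2.0 and 0.42 in H9 EV, against 1.72 and 1.86 in B3 EV and 1.01 and 0.95 in ancestor EV. The third H9 EV array was far below the other H9 EV arrays. BCP1 (YDR361C), a nuclear chaperone of a ribosomal protein, was the lowest of the list in D11 EV at -0.14, and stood at 1.18 (adjusted p = 0.00779) without both D11 arrays that stood apart. In that setting 11 of 11 were called in D11 EV, 0 in D11 tRNA, where the median was 0.028, and 5 in H9 tRNA. The 10 tested processome genes outside the block had a median of 0.87 in D11 EV, with 4 called higher. In H9 EV their median was -0.04 with 0 called. It was -0.29 in D11 tRNA (-0.47 without both D11 arrays that stood apart) and -0.01 in H9 tRNA.

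The 5 translation factors and regulators were all called higher in D11 EV, 0 in H9 EV, 5 in D11 tRNA and 4 in H9 tRNA, with medians of 0.66 in D11 EV, 0.48 in H9 EV, 0.73 in D11 tRNA and 0.71 in H9 tRNA. YDR341C, encoding the cytosolic arginyl-tRNA synthetase, rose by 1.21 in D11 EV, TIF35, a subunit gene of initiation factor 3, by 0.84, and EFT2, encoding elongation factor 2, by 0.66. EFT2 differed by -0.01 in H9 EV, and its probe may take up transcript of the identical-product gene EFT1, which differed by 0.21 in D11 EV. Without both D11 arrays that stood apart, 2 of these 5 were called in D11 EV, with a median of 0.39, and 3 in H9 EV, and EFT2 stood at 0.39 in D11 EV and did not pass.

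The 8 genes of the respiratory chain, ATP synthase and their assembly had medians of 0.39 in D11 EV with 2 called higher, 0.64 in H9 EV with 5 called, and 0.86 in D11 tRNA and 0.84 in H9 tRNA with all 8 called in each. In D11 EV 1 was called without both D11 arrays that stood apart, with a median of 0.26. ATP5 (YDR298C), a stalk subunit of ATP synthase, stood at 1.76, 1.84 and 1.83 in D11 EV and 2.48, 2.91 and 2.47 in H9 EV, against 0.90 and 0.76 in B3 EV and 1.7 and 1.74 in ancestor EV. H9 EV lay above all of these and B3 EV below, and D11 EV exceeded the ancestor by a small margin. With the tRNA ATP5 stood at 2.01, 1.92 and 1.95 in D11 and 2.08, 1.99 and 2.14 in H9, against 0.91, 0.85 and 0.91 in B3 and 0.92, 1.28 and 1.0 in the ancestor. It rose by 0.90 in H9 EV (adjusted p = 0.00042), 0.89 in D11 tRNA and 1.0 in H9 tRNA, and differed by 0.09 in D11 EV (adjusted p = 0.615). ATP17 (YDR377W), a membrane-part subunit of the same enzyme, differed by -0.46 in D11 EV and 0.69 in H9 EV. MZM1 (YDR493W), an assembly factor of complex III, was called higher in all 4 comparisons, by 0.66, 0.59, 0.63 and 0.53.

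The 11 tested genes of ATP synthase and its inhibitor outside the block included INH1 (YDL181W), on the left arm of chromosome IV. Their medians were -0.61 in D11 EV with 6 called lower and 0.10 in H9 EV with 0 called. With the tRNA the medians were 0.36 in D11 and 0.37 in H9, with 2 and 1 called higher. Of these genes 8 were called lower in D11 EV, and 3 and 4 higher in D11 tRNA and H9 tRNA without both D11 arrays that stood apart. The respiratory members lay above the off-block ATP synthase median in each comparison, by list medians and with no test of the difference. In B3 EV the 8 members had a median of -0.42 with 2 called lower, and the off-block genes one of -0.74 with 6 called lower.

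Of the mitochondrial ribosome and tRNA charging list 6 members were tested. Of these 0 were called in D11 EV, 3 in H9 EV, 4 in D11 tRNA and 5 in H9 tRNA, with medians of 0.35, 0.49, 0.72 and 0.85. At an unadjusted p under 0.05 4 of the 6 differed in D11 EV, beside 2456 of 5911 tested genes. MSW1 (YDR268W), the mitochondrial tryptophanyl-tRNA synthetase gene, differed by 0.25 in D11 EV and rose by 0.45 in H9 EV, 0.74 in D11 tRNA and 0.84 in H9 tRNA. MRP1 (YDR347W), a small-subunit protein gene, was lowest in D11 EV at -1.0, and stood at 0.08 without both D11 arrays that stood apart. In that setting the list median in D11 EV was 0.20 and 5 of 6 were called in H9 EV.

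Of 12 genes for the proteasome, ubiquitin and SUMO, 4 were called higher in D11 EV, 1 in H9 EV and 8 each in D11 tRNA and H9 tRNA, with medians of 0.36, 0.42, 0.57 and 0.61. In H9 EV 5 were called without both D11 arrays that stood apart. TOM1 (YDR457W), a large ubiquitin ligase gene, was called in all 4 comparisons, by 0.78, 0.80, 0.57 and 0.62. HEL2 (YDR266C), whose product marks stalled ribosomes with ubiquitin, rose by 0.71 in D11 EV, 0.53 in D11 tRNA and 0.59 in H9 tRNA, and differed by 0.43 in H9 EV (adjusted p = 0.0652). RPT3 (YDR394W), an ATPase of the proteasome base, rose in D11 tRNA by 0.56, and SMT3 (YDR510W), encoding SUMO, rose by 0.83 in D11 tRNA and 0.80 in H9 tRNA. SKP1 (YDR328C), of SCF ubiquitin ligases, and SEM1 (YDR363W-A), of the proteasome lid, were lowest in D11 EV at -1.11 and -0.85, and stood at 0.30 and 0.36 without both D11 arrays that stood apart. The 16 proteasome subunit genes outside the block had medians of -0.17, -0.15, -0.03 and -0.09 in D11 EV, H9 EV, D11 tRNA and H9 tRNA. Of these 16, 1 was called higher and 3 lower in D11 EV, and 0 were called by limma in the other 3 comparisons. With both D11 arrays that stood apart left out, 5 were called lower in D11 EV and 1 in H9 tRNA, and the D11 tRNA median was -0.057.

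Chromatin and transcription genes had list medians between 0.47 and 0.61 in D11 and H9. Of 16 such members 13 were called higher in D11 EV, 4 in H9 EV, 12 in D11 tRNA and 11 in H9 tRNA, with medians of 0.61, 0.47, 0.54 and 0.54. In H9 EV 10 were called without both D11 arrays that stood apart, and the medians were then 0.48 in D11 EV and 0.46 in D11 tRNA. SWR1 (YDR334W), the ATPase that exchanges histone H2A.Z, was called in all 4, by 0.71, 0.56, 0.53 and 0.49, as was RPB7 (YDR404C), an RNA polymerase II subunit gene, by 0.63, 0.52, 0.75 and 0.68. NCB2 (YDR397C), a repressor subunit that binds TBP, rose by 1.0 in D11 EV, 1.04 in D11 tRNA and 0.99 in H9 tRNA. DOT1 (YDR440W), a histone H3 methyltransferase gene, was the lowest in D11 EV at -0.36, and at 0.42 without both D11 arrays that stood apart.

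Vesicle traffic and vacuole genes gave 6 calls of 14 in D11 EV, 6 in H9 EV and 11 in each tRNA comparison, with medians of 0.42, 0.56, 0.65 and 0.58. In H9 EV 9 were called without both D11 arrays that stood apart. SNX41 (YDR425W), a sorting nexin gene, rose in all 4, by 1.29, 0.72, 0.75 and 0.58. GGA1 (YDR358W), a clathrin adaptor gene of the Golgi, differed by -0.15 in D11 EV and 0.31 in H9 EV, and rose by 1.12 in D11 tRNA and 1.05 in H9 tRNA. Its level in the ancestor with the tRNA was -2.41, -1.62 and -2.39, against -1.0 and -0.91 with the vector.

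**Figure D5:**
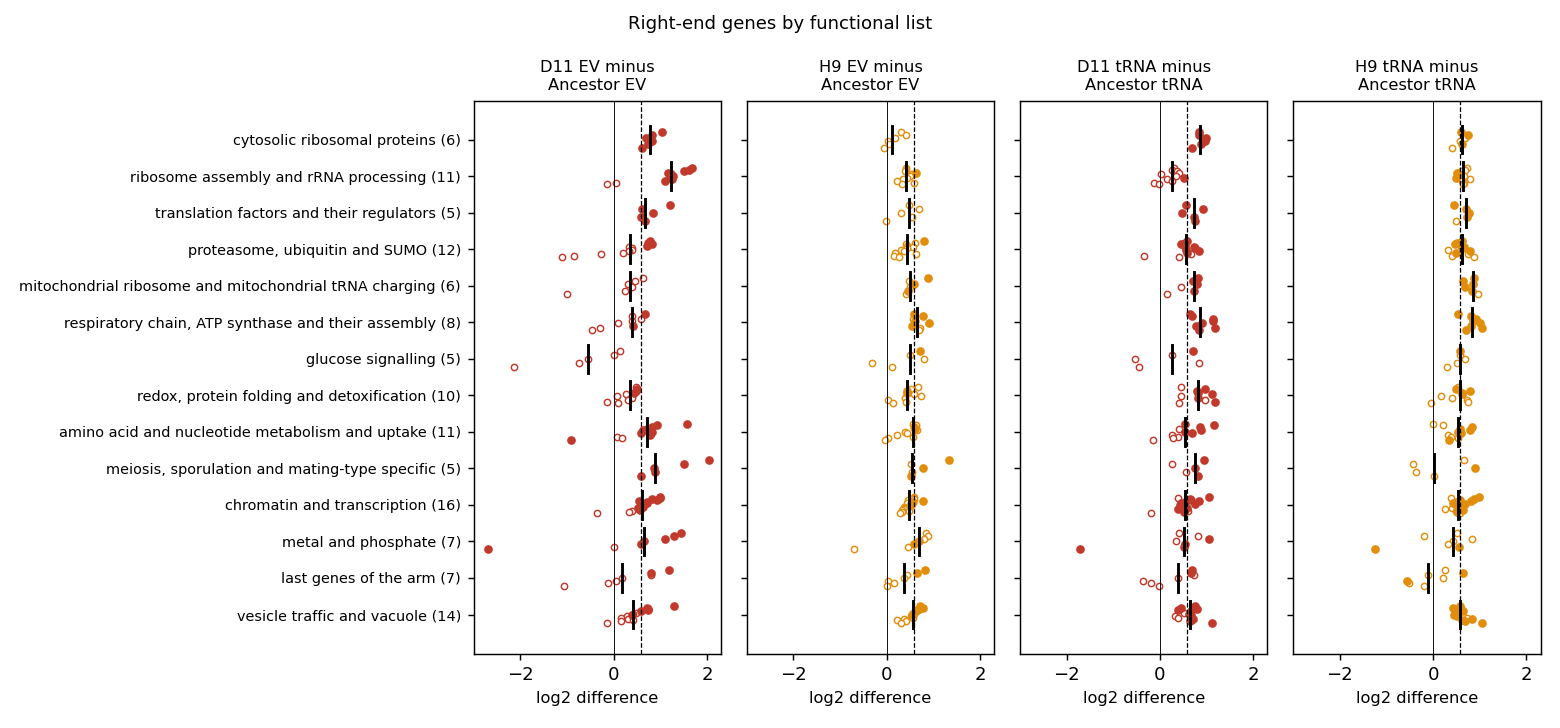
Difference in log2 level from the ancestor with the same plasmid (horizontal axes) for the members of 14 functional lists (rows, number tested in brackets) in D11 EV, H9 EV, D11 tRNA and H9 tRNA. Filled circles passed an adjusted p under 0.05, black bars are list medians and the dashed line marks 0.585. Ribosome assembly stands at 1.22 in D11 EV against 0.42 in H9 EV, and respiratory genes stand at 0.39 in D11 EV against 0.86 in D11 tRNA.

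Redox and protein folding genes were called in 3 of 10 cases in D11 EV, 2 in H9 EV, 6 in D11 tRNA and 4 in H9 tRNA. The medians were 0.35 in D11 EV, 0.43 in H9 EV, 0.81 in D11 tRNA and 0.57 in H9 tRNA. The counts were 2 in D11 EV, 4 in H9 EV and 6 in H9 tRNA without both D11 arrays that stood apart. TRR1 and CPR5 (YDR304C), a prolyl isomerase gene of the endoplasmic reticulum, were called in all 4 comparisons. GRX2 (YDR513W), a glutaredoxin gene, rose by 1.19 in D11 tRNA and differed by -0.14 in D11 EV. TSA2 (YDR453C), a minor peroxiredoxin gene, differed by 0.09, 0.14, 0.40 and -0.05, all short of the test. Its main paralog TSA1, off the block, fell in D11 EV by 0.73 (adjusted p = 0.00923), and TRR2, the mitochondrial paralog of TRR1, fell in D11 EV by 0.55 (adjusted p = 0.0108).

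Amino acid and nucleotide genes were called higher in 8 of 11 cases in D11 EV, with SAM2 called lower, 2 in H9 EV and 6 in each tRNA comparison. The list medians were 0.72 in D11 EV, 0.56 in H9 EV, 0.53 in D11 tRNA and 0.52 in H9 tRNA, and 4 were called in H9 EV without both D11 arrays that stood apart. TRP4 (YDR354W), of tryptophan synthesis, rose by 1.58 in D11 EV and 0.53 in D11 tRNA, and differed by 0.56 in H9 EV and 0.01 in H9 tRNA. GUK1 (YDR454C), the guanylate kinase gene, was called in all 4, by 0.83, 0.57, 0.87 and 0.83. HPT1 (YDR399W), of purine salvage, was called in none, with differences of 0.18, 0.03, 0.27 and 0.54.

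Of the 14 lists of block genes, glucose signalling alone had a median below 0 in D11 EV. Its 5 tested members had medians of -0.54 in D11 EV with 0 called, 0.49 in H9 EV with 1 called higher, 0.26 in D11 tRNA and 0.58 in H9 tRNA with 1 called in each. EMI2 (YDR516C), related to glucokinase, and SIP1 (YDR422C), a subunit gene of the Snf1 kinase, were among the 13 members low on both D11 arrays that stood apart. They differed by -2.13 and -0.54 in D11 EV with all arrays and by -1.06 and 0.68 without those 2, and SIP1 then passed the test. The list medians without those arrays were 0.06 in D11 EV, with 1 called higher and 1 lower, and 0.70 in D11 tRNA, with 4 called higher, and 3 were called higher in H9 EV and 3 in H9 tRNA. SNF1 (YDR477W), the catalytic kinase subunit gene, differed by 0.01 in D11 EV and 0.49 in H9 EV. Neither passed the test with all arrays, and the H9 EV value passed without both D11 arrays that stood apart (adjusted p = 0.0129).

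Metal and phosphate genes held the widest range. Of 7 members 5 were called higher in D11 EV, 2 in H9 EV, 3 in D11 tRNA and 1 in H9 tRNA, and PHM6 was called lower in D11 EV, D11 tRNA and H9 tRNA. Medians stood at 0.65 in D11 EV, 0.70 in H9 EV, 0.52 in D11 tRNA and 0.43 in H9 tRNA. The counts called higher were 3 in H9 EV, 2 in D11 tRNA and 3 in H9 tRNA without both D11 arrays that stood apart. IZH1 (YDR492W), a membrane protein gene of zinc homeostasis, rose by 1.44 in D11 EV. CCC2 (YDR270W), the copper-transporting ATPase gene, rose by 0.65 in D11 EV and 0.70 in H9 EV. PPN1 (YDR452W), a polyphosphatase gene, differed by 0.00 in D11 EV and rose by 0.52 in D11 tRNA and 0.55 in H9 tRNA.

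Sporulation and mating-type genes, which cells of this mating type do not normally use, were also measured. All 5 tested were called higher in D11 EV, 3 in H9 EV, 3 in D11 tRNA and 1 in H9 tRNA, and medians were 0.89 in D11 EV, 0.54 in H9 EV, 0.75 in D11 tRNA and 0.01 in H9 tRNA. The counts were 2 in D11 tRNA and 2 in H9 tRNA without both D11 arrays that stood apart. ZIP1 (YDR285W), of the synaptonemal complex, was called in all 4, by 0.87, 0.77, 0.75 and 0.89. MFA1 (YDR461W), encoding the a-factor pheromone, stood at -2.98, -3.21 and -2.39 in D11 EV and -3.84, -3.81 and -3.87 in H9 EV, against -4.22 and -4.49 in ancestor EV, and rose in D11 EV by 1.5 (adjusted p = 0.000667). DIT1 (YDR403W), of the spore wall, rose by 0.81 in D11 tRNA and differed by 0.01 in H9 tRNA.

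Of 7 tested genes from PAD1 to the telomere 2 were called higher in D11 EV, H9 EV and D11 tRNA, and 1 higher and 1 lower in H9 tRNA. Their medians were 0.18 in D11 EV, 0.36 in H9 EV, 0.40 in D11 tRNA and -0.11 in H9 tRNA. Without both D11 arrays that stood apart the D11 EV median was 0.44 with 3 called higher, and in H9 tRNA 2 were called higher and 2 lower. PAD1 (YDR538W) and FDC1 (YDR539W), which act together in decarboxylating phenolic acids, rose in D11 EV by 0.81 and 1.19 and in H9 EV by 0.65 and 0.82. Beyond them PAU10 (YDR542W), a seripauperin family gene, differed by -0.13, 0.16, -0.20 and -0.51. Its D11 EV value was 0.44 (adjusted p = 0.0272) without both D11 arrays that stood apart. YRF1-1 (YDR545W), of the repeated telomeric helicase family, stood at 1.88, 1.98 and -1.47 in D11 EV and 1.72, 1.85 and 2.05 in H9 EV, against 1.79 and 1.94 in ancestor EV, and the third D11 EV array lay far below the rest. PAU10 and YRF1-1 have close copies at other chromosome ends, and their probes may read several loci.

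The lineages were next set against each other. The median difference over the members was 0.04 for D11 EV minus H9 EV and 0.00 for D11 tRNA minus H9 tRNA. Of 266 members 44 were higher and 21 lower in D11 EV than in H9 EV, beside 20.7% and 11.1% of all genes. With the tRNA 6 were higher and 1 lower in D11 than in H9, beside 7.48% and 0.609%. In both comparisons the members were called no more often than all genes. SAM2 fell in D11 EV relative to H9 EV by 0.88 (interval -1.11 to -0.65, adjusted p = 3.67e-05) and in D11 tRNA relative to H9 tRNA by 0.49 (adjusted p = 0.00827). Higher in D11 EV were RMT2 (YDR465C), a methyltransferase acting on a ribosomal protein, by 1.52, RRP17 by 1.25 and ATO3 (YDR384C), linked to ammonium export, by 1.25. Lower in D11 EV were PHM6, by at least 1.9-fold with no D11 EV array well above background, PMT7 (YDR307W), a mannosyltransferase homolog, at -1.53, SDH6 (YDR379C-A), an assembly factor of succinate dehydrogenase, at -1.17 and ATP17 at -1.15. Without both D11 arrays that stood apart 33 members were higher and 43 lower, beside 18.6% and 14.8% of all genes, and PMT7 stood at -0.72.

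The tRNA plasmid moved few members within D11 or H9, and no larger a share of them than of all genes. In the ancestor 13 members were higher and 22 lower with the tRNA than with the vector, beside 7.99% and 11.1% of all genes. In D11 the counts were 2 and 0, beside 2.06% and 0.727%, and in H9 9 and 5, beside 4.21% and 4.33%. In B3 0 members were called by limma, beside 0.694% higher and 0.237% lower over all genes. There 10 members had an unadjusted p under 0.05, beside 352 of 5911 tested genes. At an unadjusted p under 0.05, 35 members differed in D11 and 56 in H9, against 83 in the ancestor. Of all 5911 tested genes 1063, 1531 and 2016 did so in D11, H9 and the ancestor. SAM2 fell with the tRNA in the ancestor by 0.97 (adjusted p = 8.58e-05) and in H9 by 0.60 (adjusted p = 0.00555). ATP5 fell by 0.65 in the ancestor (adjusted p = 0.00219) and by 0.55 in H9 (adjusted p = 0.0109). DIT1 rose with the tRNA in D11 by 0.51. PHM6 was also called higher there on its measured values (adjusted p = 0.0295, limma). With no D11 EV array well above background it was at least 1.23-fold higher, a bound that was not itself tested. Neither gene passed the test without both D11 arrays that stood apart. YDR526C, RRP17 and BFR2 rose in H9, by 1.37, 1.05 and 1.03. The counts that follow, without a single array, are not set beside shares of all genes in the same fits. The ancestor count of 35 became 7 and 9 without ancestor EV replicates 1 and 2, and 17 and 9 without ancestor tRNA replicates 1 and 3. The H9 count of 14 ran from 2 (without H9 tRNA replicate 2) to 25 (without H9 EV replicate 1).

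The response of D11 to the tRNA was tested against that of the ancestor directly. It differed for 28 members, 17 upward and 11 downward, beside 7.22% and 6.12% of all genes. The members were thus called no more often than all genes. In H9 the response differed for 0 members by limma, beside 0.152% and 0.372%. At an unadjusted p under 0.05 it did for 20 members in H9, beside 607 of 5911 tested genes. In B3 1 member was more positive and 0 more negative, beside 0.203% and 0.152%. SDH6, MTH1 and QCR7 (YDR529C), a complex III subunit gene, had the most positive differences of response in D11, at 2.03, 1.57 and 1.46, and RMT2, ATO3 and RRP17 the most negative, at -1.8, -1.72 and -1.36. Both ancestor groups enter this contrast. Its counts without a single array are not set beside shares of all genes in the same fits. The count was 4 and 5 without ancestor EV replicates 2 and 1, between 7 and 10 without ancestor tRNA replicates 1 or 3 or D11 tRNA replicates 1 or 3, and 63 without both D11 arrays that stood apart. Of those 63, 38 were upward and 25 downward, beside 15.48% and 11.06% of all genes.

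The 19 members that were not tested had no group in which every array lay well above background. They included STL1 (YDR536W), a glycerol transporter gene, SPS2 (YDR522C), a sporulation gene, and ECM11 (YDR446W), a meiotic gene, and 2 of the 19 were well above background on 0 arrays. Of the 266 tested members 250 were well above background on all 22 arrays. The filter took a gene if it was detected throughout any 1 group, so that a gene visible in 1 group could enter through that group alone. Signals come from whole cultures, so that a lower RNA level per cell and fewer cells with that RNA cannot be told apart.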

How the data were processed

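RNA of 22 cultures was hybridised to 1-colour Agilent arrays, 1 array per culture. The spot intensity was deposited by the authors as Agilent Feature Extraction 10.7.3.1 output, background-subtracted and spatially detrended. The deposited series table holds log2 values that tracked log2 of the background-subtracted signal plus a constant per array. The study's methods name median centring of each array. The table served only as an alternative.

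From the processed signal, log2 values were taken, outlier spots left out, spots averaged per probe, the median of each array over noncontrol probes subtracted, and probes averaged per gene. Probes not detected above background throughout any single group were dropped. The remaining 5911 genes entered 1 limma fit (version 3.58.1, R 4.3.3) with 8 groups (14 residual degrees of freedom), and p-values were adjusted by Benjamini-Hochberg over all genes in each of 19 comparisons. Intervals are 95% intervals of the fit. Precision is set by the few arrays per group and is lowest for the 2-array groups. The pipeline was tested on simulated data.

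The members and gene lists were chosen with earlier results of these data known. Genes named were those beside the start of the block, the highest, middle and lowest of each list, the leading escapers, followers and overshooting genes, and the largest differences between lineages or plasmids. SWA2, TRR1, YRA1, YDR433W, CPR5, GUK1, HEL2, HPT1, MFA1, MSW1, PAD1, PAU10, PPN1, QCR7, RPT3, SEM1, SMT3, SNF1 and SWR1 were added after their values were seen. Alternatives covered scaling, background, dim probes, array weights, the slide and replicate number as blocks, each array left out, the samples fitted, a fold limit and the methods' t-test. Replicate numbers did not pair the arrays: deviations of same-numbered arrays correlated between -0.56 and 0.60 over 71 pairs (median 0.02).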

Additional observations from a re-analysis of the deposited data

Results flagged for a closer look

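The results below differed between lineages, or between a lineage and the ancestor, by a test of the difference itself (limma, Benjamini-Hochberg). All values are log2 differences, and single values were not tested for outliers by Dixon's criterion, since each group held 2 or 3 arrays.

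Between D11 EV and H9 EV 65 of 266 members differed, 44 higher and 21 lower in D11 EV, beside 20.7% and 11.1% of all genes. With all arrays the members were thus called no more often than all genes. PHM6 was measured at -2.0, with no D11 EV array well above background, which gives at least 1.9-fold lower. The most negative of the others were PMT7 at -1.53, MGP12 at -1.45, SDH6 at -1.17 and ATP17 at -1.15. The most positive were RMT2 at 1.52, YDR426C at 1.36, RRP17 at 1.25, ATO3 at 1.25 and MOR1 at 1.25. YDR426C was well above background on 1 of 3 D11 EV arrays and 1 of 3 H9 EV arrays. Without both D11 arrays that stood apart PMT7 stood at -0.72, MGP12 at -0.48 and MOR1 at 0.89, which no longer passed the test.

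Between D11 tRNA and H9 tRNA 7 of 266 members differed, 6 higher and 1 lower in D11 tRNA, beside 7.48% and 0.609% of all genes. The members were again called no more often than all genes. SAM2 was lower in D11 at -0.49. Higher in D11 were PHO92, whose product binds methylated RNA, at 1.02, ARO10, of aromatic amino acid breakdown, at 0.95, the spore wall genes DIT2 at 0.93 and DIT1 at 0.79, TRP4 at 0.53 and EUG1, a protein disulfide isomerase homolog, at 0.47. EUG1 no longer passed without both D11 arrays that stood apart, at 0.39.

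The response to the tRNA differed between D11 and the ancestor for 28 of 266 members. Of these, 17 were upward and 11 downward, beside 7.22% and 6.12% of all genes. Here too the members were called no more often than all genes. It was more positive in D11 for SDH6 (2.03), MTH1 (1.57), QCR7 (1.46), GRX2 (1.33) and ATP17 (1.30). It was more negative in D11 for RMT2 (-1.80), ATO3 (-1.72), RRP17 (-1.37), MFA1 (-1.24) and TRP4 (-1.05).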

How the results depend on the processing

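In the comparisons of D11 and H9 with the ancestor, the block median was above 0 under every alternative run, with or without any single array. Among named genes 0 of 128 differences that passed the test turned sign, against 41 of 140 that had not passed. Differences that passed lie far from 0 for their error, so this contrast was largely set by the selection. Without both D11 arrays that stood apart, 3 turned differences in D11 EV and 1 in D11 tRNA had passed in 1 of the 2 settings. The counts of calls moved more. With a 2-fold limit the members called were 36 in D11 EV, 2 in H9 EV, 3 in B3 EV, 17 in D11 tRNA and 6 in H9 tRNA against the ancestor, 3, 1 and 4 for tRNA against EV in the ancestor, D11 and H9, 24 and 35 for D11 EV and H9 EV against B3 EV, 16 for D11 EV against H9 EV, 1 for D11 tRNA against H9 tRNA and 10 for the D11 response. By the methods' t-test after Benjamini-Hochberg they were 8 in D11 EV, 2 in H9 EV, 74 in B3 EV and 38 in D11 tRNA, 8, 0 and 0 for tRNA against EV in the ancestor, D11 and H9, and 0, 6 and 0 for D11 EV against B3 EV, H9 EV against B3 EV and D11 EV against H9 EV. Fitting only the groups compared gave 45 in D11 EV, 0 in H9 EV, 142 in B3 EV, 72, 0 and 0 for tRNA against EV in the ancestor, D11 and H9, 0, 83 and 0 for the same 3 EV comparisons, 14 for D11 tRNA against H9 tRNA, 13 for the D11 response and 22 escapers in D11 EV. Array weights gave 208 in H9 EV, 151 in B3 EV, 229 in H9 tRNA, 10 in B3 tRNA (median -0.022), 133, 44 and 67 for tRNA against EV in the ancestor, D11 and H9 (H9 median 0.042, against -0.015), 71 for D11 tRNA against H9 tRNA, 112 for the D11 response, and 100 and 85 escapers in D11 EV and H9 EV. Counts in this section take both directions together and are not set beside the share of all genes called in the same setting. They show how far the number of members called moves, and not whether members differ from other genes. The causes were not tested.

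With the 75th percentile, calls were 26 in B3 EV (median -0.12), 1 in B3 tRNA (median -0.054) and 4 for tRNA against EV in D11 (median 0.033), and medians were 0.58 in H9 tRNA and -0.037 for tRNA against EV in H9. Centring on chromosomes without copy number change gave 12 calls for D11 tRNA against H9 tRNA and medians of -0.022 for tRNA against EV in the ancestor, -0.023 in B3 EV, -0.018 in B3 tRNA, 0.55 in H9 tRNA and -0.042 for tRNA against EV in H9. Normexp with quantile normalization gave 11 calls in B3 EV, 2 in B3 tRNA, 37 escapers in H9 EV, and medians of 0.51 in D11 tRNA, 0.54 in H9 tRNA and -0.055 for tRNA against EV in the ancestor. The series table gave 1 call in B3 tRNA (median -0.042) and a median of -0.10 for tRNA against EV in the ancestor, and probes above background on every array gave 1 call for tRNA against EV in D11 and a median of -0.10 in B3 EV. With the replicate number as a block, 49 members were called in H9 EV and 1 in B3 tRNA, the median for tRNA against EV in the ancestor was -0.10, and no other count of members moved by over 1.5 times. Leaving out both D11 arrays that stood apart, an alternative chosen after seeing the data, gave 63 calls for the D11 response, 20 for D11 tRNA against H9 tRNA and 4 for tRNA against EV in D11 (median 0.041). Of 58 named members it turned the sign of 8 in D11 EV and 4 in D11 tRNA and ended the call of 4 in each, and it added calls for 4 in each, 8 in H9 EV and 12 in H9 tRNA.

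Leaving out 1 array at a time, calls ran from 83 to 157 in D11 EV, 8 to 85 in H9 EV, 4 to 6 in B3 EV, 106 to 134 in D11 tRNA, 108 to 124 in H9 tRNA and 0 to 1 in B3 tRNA, 7 to 39, 0 to 5 and 2 to 25 for tRNA against EV in the ancestor, D11 and H9, 86 to 158 and 93 to 146 for D11 EV and H9 EV against B3 EV, 53 to 83 for D11 EV against H9 EV, 3 to 6 for D11 tRNA against H9 tRNA and 4 to 43 for the D11 response. Escapers ran from 24 to 70 in D11 EV and 10 to 43 in H9 EV. Medians ran from 0.46 to 0.59 in D11 EV, -0.096 to -0.043 in B3 EV, -0.039 to -0.017 in B3 tRNA, 0.57 to 0.62 in D11 tRNA and 0.59 to 0.62 in H9 tRNA, -0.10 to -0.069, -0.10 to 0.040 and -0.040 to 0.022 for tRNA against EV in the ancestor, D11 and H9, the last turning above 0 without H9 EV replicate 3. They ran from -0.019 to 0.095 for D11 EV against H9 EV and -0.025 to 0.034 for D11 tRNA against H9 tRNA.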

Other observations

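The hexose transporter genes inside the block were outside its rule. HXT3 differed from the ancestor with the same plasmid by 0.94 in D11 EV, 0.30 in H9 EV, 0.82 in D11 tRNA and 0.62 in H9 tRNA. HXT6 differed by -0.84, 0.46, 0.88 and 0.26 in the same groups and HXT7 by -0.91, 0.45, 0.78 and 0.20. Both were higher on the third H9 EV array than on the others, and without it they differed in H9 EV by -0.24 and -0.20. HXT6 and HXT7 are near-identical, so their probes may read each other's transcripts.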
